A study of Mus musculus with 10 samples.

Results

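Glycolysis and the response to low oxygen were followed through 31 genes in mouse bone marrow macrophages, of the 13809 genes in the deposited expression table. The genes were taken by name: 20 encode glycolytic enzymes with their sugar and lactate transporters and regulators, and 11 encode the oxygen-sensing pathway or genes that hypoxia induces. All 31 are in the table, and all 31 passed the filter on low values (10 or more normalized reads in at least 2 libraries). The study measured RNA by sequencing in 10 libraries from C57BL/6 mice aged 12 weeks, in 4 groups. LPS-treated resident macrophages (3 libraries) were cells that a magnetic column held back from unstained bone marrow, which the labels mark as CD163+, given 1 µg/ml lipopolysaccharide (LPS) for 4 h. Untreated resident macrophages (3 libraries) were the same kind of cell without LPS. LPS-treated bone marrow derived macrophages, or BMDM (2 libraries), were grown from the cells that passed through the column and given LPS at the same dose and time, and untreated BMDM (2 libraries) were not. BMDM, marked CD163-, had been cultured with 20% L929 cell supernatant, which carries a macrophage growth factor; the growth protocol gives 6 days of culture, whereas the titles say 7. Origin and culture therefore cannot be told apart in any comparison of resident macrophages with BMDM, and the labels do not say whether libraries of a group came from separate mice or cultures, so p-values measure only the spread between these libraries.

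Glycolysis splits glucose into pyruvate in the cytosol. Transporters bring glucose in, hexokinases trap it, phosphofructokinase commits it, and a second run of enzymes from aldolase to pyruvate kinase yields ATP. Lactate dehydrogenase then turns pyruvate into lactate, which monocarboxylate transporters export. Hypoxia-inducible factor (HIF) is a transcription factor whose alpha subunits are hydroxylated by the EGLN prolyl hydroxylases in the presence of oxygen and then destroyed, and it binds the core sequences ACGTG and GCGTG near its target genes. LPS, a bacterial cell wall component sensed by Toll-like receptor 4, is known to raise Hif1a mRNA and glycolysis in mouse macrophages grown in culture.

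The values, called normalized reads here, are gene reads scaled by the authors with a single factor for each library, and the reads recovered from them came to 27.1 to 37.7 M per library. The deposited values summed to 29.9 to 32.4 M in LPS-treated and 26.55 to 30.96 M in untreated resident macrophages, and to 38.6 and 38.8 M in LPS-treated BMDM, against 24.7 and 26.0 M in untreated BMDM. A scaling to equal library totals therefore moves every LPS change in BMDM down, and its effect is given beside the results it alters. The totals it equalized left out the gene Rn45s. Rn45s was 0.232% and 4.70% of values in untreated BMDM replicates 1 and 2, and 0.161% and 0.151% in LPS-treated BMDM. Cd163 had 6476, 4131 and 4918 normalized reads in LPS-treated and 10740.4, 5282 and 6487 in untreated resident macrophages, against 14.4 and 14.9 in LPS-treated and 41.9 and 53.9 in untreated BMDM, so the groups separated as labelled. Resident libraries also held neutrophil transcripts: 16 neutrophil marker genes summed to 1.24 to 1.46% of all values with LPS and 0.779 to 1.61% without, against at most 0.0205% in BMDM, where Ly6g was at the floor of the table in all 4 libraries. Of the resident libraries, replicate 1 of each treatment carried Y-linked transcripts and the other 4 did not, and untreated replicate 1 had the lowest neutrophil sum.

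**Figure D1:**
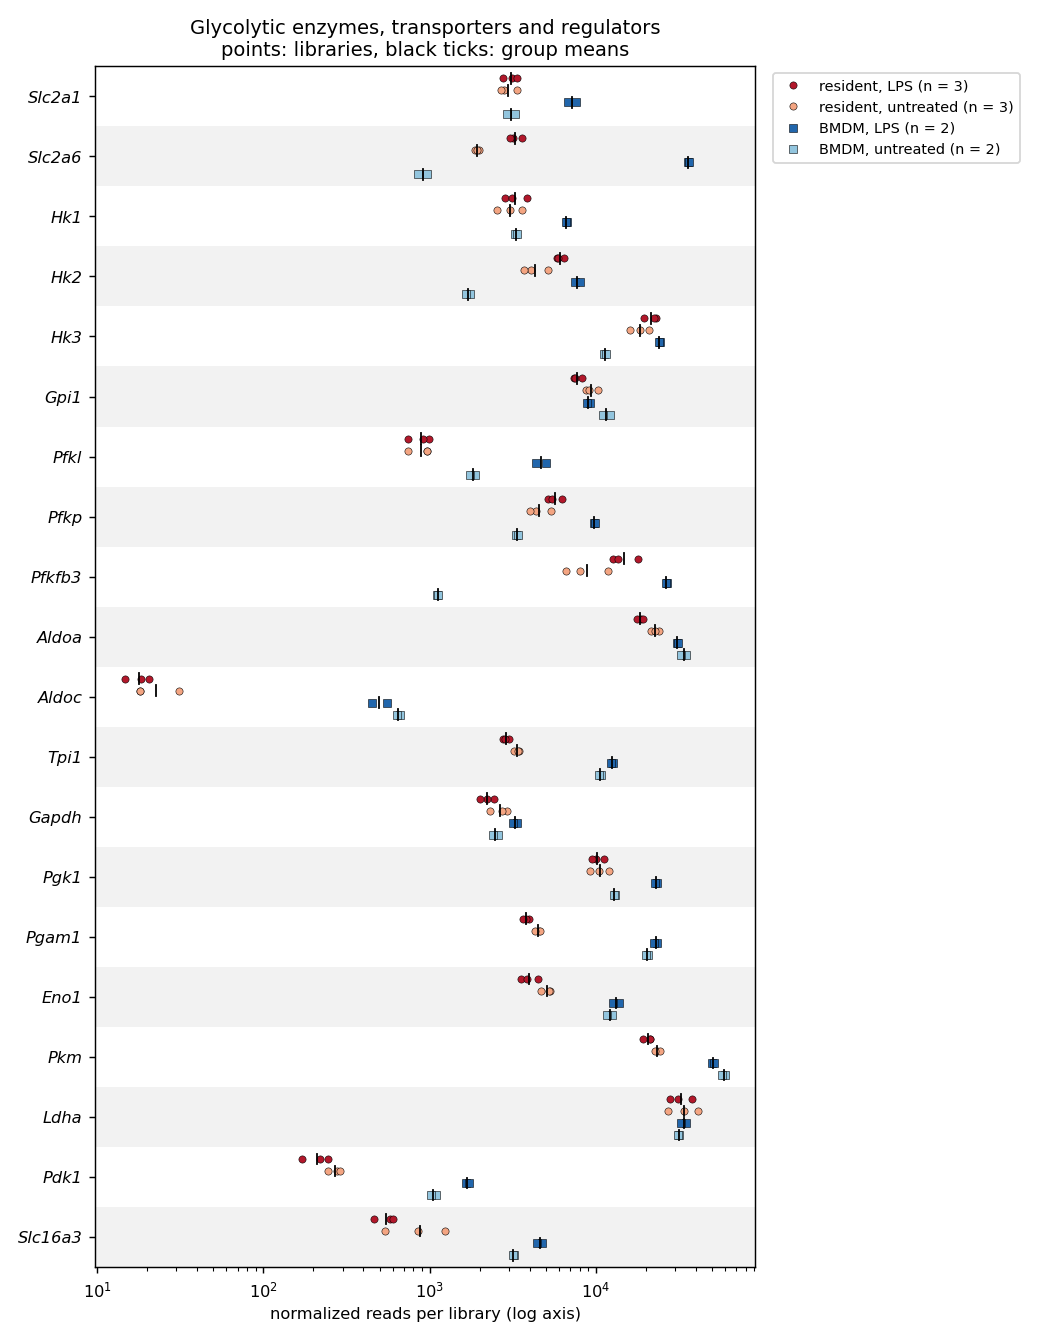
Normalized reads (log axis) of the 20 glycolytic genes in each library, with a point per library and a black tick at the group mean; groups run from LPS-treated resident macrophages at the top of each band to untreated BMDM at the bottom. Slc2a6 and Pfkfb3 show the widest gap between LPS-treated and untreated BMDM, while Aldoc, Tpi1, Pgam1, Eno1, Pkm, Pdk1 and Slc16a3 lie lower in resident macrophages than in BMDM whatever the treatment.

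Fewer glycolytic genes were called with LPS in resident macrophages than in BMDM, and the same held for all tested genes (12.9% against 57.8% called). In resident macrophages 3 of 20 rose, 3 fell and 14 were not called (limma adjusted p under 0.05), where 7.36% of all 13755 tested genes rose and 5.57% fell. Their median log2 change was -0.12, against 0.00 for all genes. In BMDM 12 of 20 rose, 1 fell and 7 were not called, where 28.3% of all genes rose and 29.5% fell, and the median was 0.60 against -0.04. The BMDM count depended on the scaling: with equal library totals it was 7 higher and 9 lower. That scaling called 10156 of all 13755 genes, of which 20.9% were higher. With either scaling 16 of the 20 BMDM changes lay above the median of all genes. These are bulk RNA values, in which fewer cells of a type and less RNA per cell cannot be told apart.

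The largest rise in BMDM was that of Slc2a6, a member of the glucose transporter family, on chromosome 2 (chr2:27021363-27027998, minus strand, GRCm38). It had 3620.5, 3179 and 3043 normalized reads in LPS-treated resident macrophages, against 1982, 1883 and 1941 in untreated ones, a rise of 1.69-fold (log2 change 0.76 ± 0.08 (SE), limma adjusted p = 0.000443). In BMDM the rise was 39.6-fold, with 35769 and 36207 normalized reads in LPS-treated BMDM, against 963 and 857 in untreated BMDM (log2 change 5.31 ± 0.10 (SE), limma adjusted p = 1.26e-10). Neither pair of groups overlapped, and this was the only resident LPS call among the 31 genes that held under all 22 alternative settings. The difference between the responses, resident minus BMDM, was -4.55 ± 0.12 (SE), limma adjusted p = 4.8e-09, on the log2 scale.

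Slc2a1, the widely expressed basal glucose transporter, had 3147, 2771 and 3348 normalized reads in LPS-treated resident macrophages, against 3359, 2808 and 2702 in untreated ones, and the ranges overlapped (log2 change 0.065 ± 0.10 (SE), limma adjusted p = 0.758). It had 7658 and 6793 in LPS-treated BMDM, against 3264 and 2937 in untreated BMDM (log2 change 1.22 ± 0.13 (SE), limma adjusted p = 1.61e-05). Both resident groups and untreated BMDM thus lay between 2702 and 3359 normalized reads, and LPS-treated BMDM stood above them. The difference of responses was -1.15 ± 0.16 (SE), limma adjusted p = 0.000288.

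Counted per kilobase of transcript, the mix of glucose transporters differed between the groups. In resident macrophages Slc2a6 was 48.2% ± 5.03 (SD, n = 3) of the reads per kilobase of Slc2a1, Slc2a6 and Slc2a3 with LPS, against 36.2% ± 3.16 without. In BMDM it was 88.2% ± 0.949 (SD, n = 2) with LPS, against 29.1% ± 0.226 without, while Slc2a1 was 11.6% ± 0.958 against 65.1% ± 0.0287. Slc2a3, a high-affinity glucose transporter that is not among the 31 genes, was 22.1% of the mix in LPS-treated and 27.4% in untreated resident macrophages, against 0.240% and 5.85% in LPS-treated and untreated BMDM. Its lowest resident values were those of replicate 1 of each treatment, with 1899, 3784 and 2724 normalized reads in LPS-treated resident macrophages, against 1562, 3639 and 3071 in untreated ones.

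With the deposited scaling the 3 hexokinase genes all rose in BMDM, and Hk2 also in resident macrophages; Hk1 was not called in BMDM with equal totals, voom or quantile normalization, nor Hk3 with quantile normalization. Hk2, the inducible hexokinase, had 6475, 5861 and 5896 normalized reads in LPS-treated resident macrophages, against 5184, 4093 and 3685 in untreated ones (log2 change 0.51 ± 0.11 (SE), limma adjusted p = 0.0174). It had 7470.3 and 7986 in LPS-treated BMDM, against 1741 and 1649 in untreated BMDM (log2 change 2.19 ± 0.14 (SE), limma adjusted p = 3.15e-07), and neither comparison showed overlap. The resident call of Hk2 was lost without untreated replicate 2. Resident minus BMDM, the responses differed by -1.68 ± 0.18 (SE), limma adjusted p = 3.33e-05.

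Hk1, the general housekeeping hexokinase, had 2853, 3849.8 and 3121 normalized reads in LPS-treated resident macrophages, against 2535, 3595 and 3034 in untreated ones, which overlapped (log2 change 0.10 ± 0.13 (SE), limma adjusted p = 0.693). In BMDM its groups stood apart, with 6738 and 6594 in LPS-treated BMDM, against 3256 and 3349 in untreated BMDM (log2 change 1.01 ± 0.16 (SE), limma adjusted p = 0.000386). Hk3, the hexokinase typical of myeloid cells, had 22904, 19404 and 22286 normalized reads in LPS-treated resident macrophages, against 20938, 18459 and 16177 in untreated ones, which also overlapped (log2 change 0.22 ± 0.11 (SE), limma adjusted p = 0.22). It had 24194 and 24005 in LPS-treated BMDM, against 11231 and 11478 in untreated BMDM (log2 change 1.09 ± 0.13 (SE), limma adjusted p = 5.22e-05). Per kilobase Hk3 was the main hexokinase transcript in all 10 libraries, at 78.1% of the 3 in LPS-treated and 79.3% in untreated resident macrophages, and 71.7% in LPS-treated and 76.6% in untreated BMDM.

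Of the phosphofructokinase subunit genes, Pfkl and Pfkp rose in BMDM. Pfkl, the liver-type subunit, had 746, 999 and 909 normalized reads in LPS-treated resident macrophages, against 746, 966 and 963 in untreated ones, with overlap (log2 change -0.011 ± 0.13 (SE), limma adjusted p = 0.974), and 5038 and 4366 in LPS-treated BMDM, against 1879.7 and 1762 in untreated BMDM (log2 change 1.37 ± 0.16 (SE), limma adjusted p = 3.77e-05). Pfkp, the platelet-type subunit, had 6296, 5163 and 5487 normalized reads in LPS-treated resident macrophages, against 5389, 4342 and 4013 in untreated ones, with overlap (log2 change 0.31 ± 0.11 (SE), limma adjusted p = 0.101), and 9777 and 9879 in LPS-treated BMDM, against 3308 and 3416 in untreated BMDM (log2 change 1.55 ± 0.14 (SE), limma adjusted p = 4.22e-06). LPS-treated BMDM were the highest group for both subunits. Pfkp was the larger share of the phosphofructokinase subunits per kilobase in every library, at 79.7 to 87.1% in LPS-treated and 76.7 to 85.6% in untreated resident macrophages, and 62.5 to 66.0% in LPS-treated and 56.4 to 58.5% in untreated BMDM.

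Pfkfb3 encodes the enzyme that makes the main allosteric activator of phosphofructokinase, and it lies on chromosome 2 (chr2:11471433-11554077, minus strand). It had 18051, 12771 and 13553 normalized reads in LPS-treated resident macrophages, against 11798, 8075 and 6615 in untreated ones, a 1.71-fold rise (log2 change 0.77 ± 0.19 (SE), limma adjusted p = 0.0273). Replicate 1 was the highest library of either resident group, and without untreated replicate 1 the resident log2 change was 1.00, against 0.58 without untreated replicate 3. The call held in 14 of 22 alternatives and was lost without LPS-treated resident replicate 1 or 3, untreated resident replicate 2 or 3, or either LPS-treated BMDM library. In BMDM the rise was 23.7-fold, with 26760.5 and 26479 normalized reads in LPS-treated BMDM, against 1116 and 1126 in untreated BMDM (log2 change 4.57 ± 0.24 (SE), limma adjusted p = 6.41e-08). The difference of responses was -3.80 ± 0.30 (SE), limma adjusted p = 4.22e-06. Among the 4 Pfkfb genes, Pfkfb3 was 84.4% ± 2.64 (SD, n = 3) of reads per kilobase in LPS-treated resident macrophages, against 71.2% ± 5.97 in untreated ones. It was 96.3% ± 0.360 (SD, n = 2) in LPS-treated BMDM, against 25.1% ± 0.348 in untreated BMDM, where Pfkfb4 led with 59.8%.

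**Figure D2:**
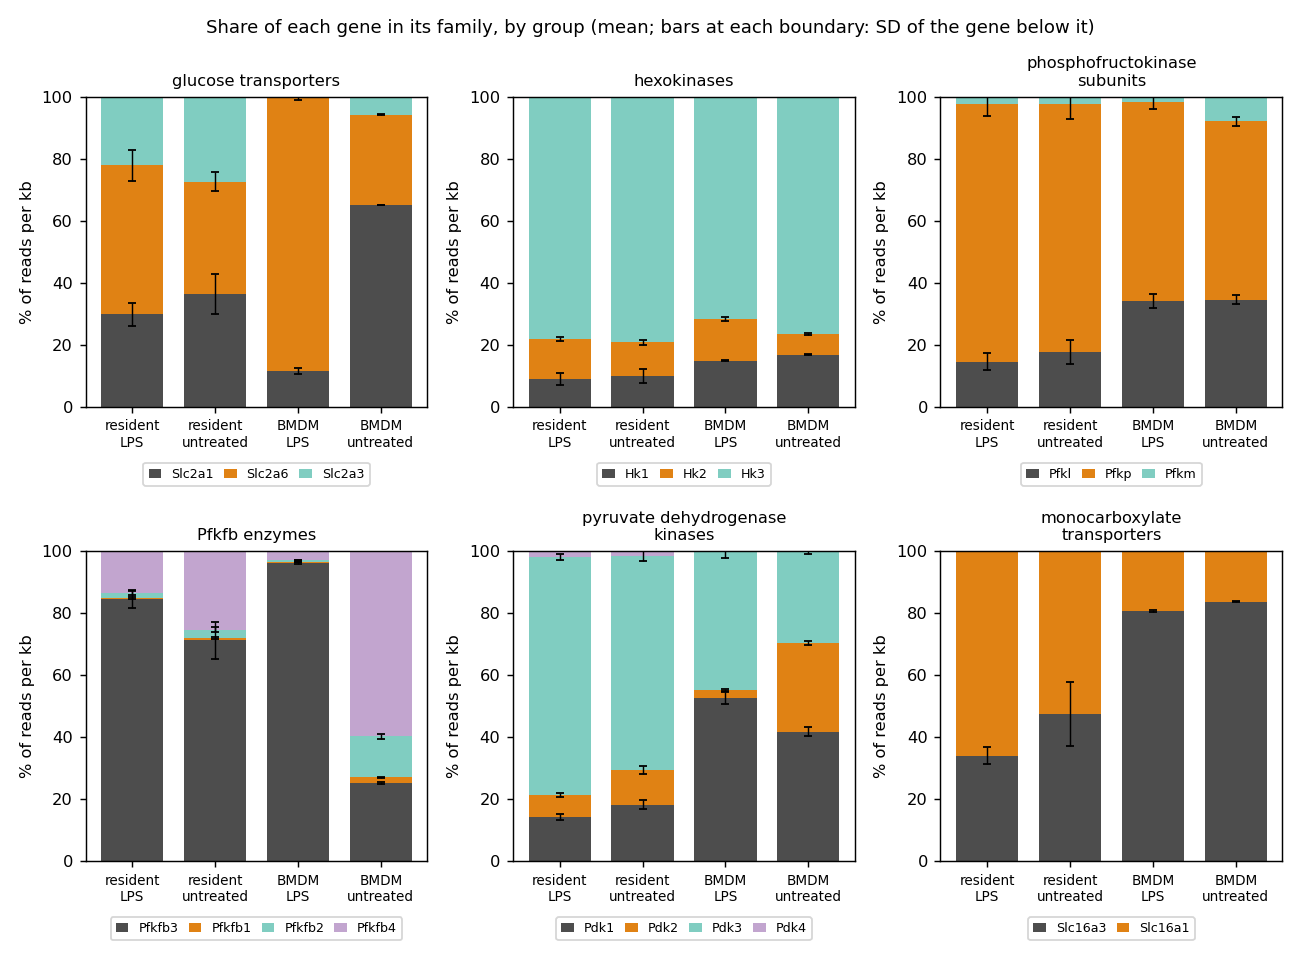
Share of each gene in the reads per kilobase of its family (percent, stacked bars of group means, with bars for the SD at each boundary; n = 3 resident and n = 2 BMDM libraries per treatment). Slc2a6 takes 88.2% of the glucose transporter bar and Pfkfb3 96.3% of the Pfkfb bar in LPS-treated BMDM, against 29.1% and 25.1% in untreated BMDM.

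The upstream sequences of the genes at the extremes are shown so that the letters bound by HIF can be seen beside these values. They come from RefSeq (GRCm38.p6) and hold the 250 bases before an annotated start, read 5′ to 3′ on the strand of the gene, with the letters ACGTG as well as those of GCGTG, on either strand, in capitals. In BMDM Slc2a6 rose most and Pfkfb3 came next. Ldha, lactate dehydrogenase A, did not pass the test in any of the 5 comparisons with the deposited scaling. Its LPS change in BMDM was called lower with equal totals (-0.54, limma adjusted p = 0.00591) and quantile normalization (-0.85, limma adjusted p = 0.000212). The windows are chr2:27027999-27028248 (minus strand), chr2:11502091-11502340 (minus strand, the downstream of 2 Pfkfb3 starts) and chr7:46845554-46845803 (plus strand, the first of 2 Ldha starts).
Slc2a6: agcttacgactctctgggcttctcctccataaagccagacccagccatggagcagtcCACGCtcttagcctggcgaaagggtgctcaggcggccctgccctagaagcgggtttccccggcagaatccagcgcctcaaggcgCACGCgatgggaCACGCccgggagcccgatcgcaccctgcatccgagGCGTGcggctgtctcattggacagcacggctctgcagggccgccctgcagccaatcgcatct
Pfkfb3: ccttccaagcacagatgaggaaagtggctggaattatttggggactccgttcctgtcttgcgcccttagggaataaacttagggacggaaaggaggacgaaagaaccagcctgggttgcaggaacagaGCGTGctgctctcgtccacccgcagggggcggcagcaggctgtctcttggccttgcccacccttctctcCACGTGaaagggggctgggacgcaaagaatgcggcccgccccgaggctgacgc
Ldha: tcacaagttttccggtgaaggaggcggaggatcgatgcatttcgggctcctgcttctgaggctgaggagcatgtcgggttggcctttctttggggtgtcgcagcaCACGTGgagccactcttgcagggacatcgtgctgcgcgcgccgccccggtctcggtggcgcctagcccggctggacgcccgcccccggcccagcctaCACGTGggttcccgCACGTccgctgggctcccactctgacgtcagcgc
Slc2a6 held 4 matches to GCGTG and 0 to ACGTG, while Pfkfb3 held ACGTG on both strands of a single CACGTG and 1 GCGTG. Ldha held 5 matches to ACGTG, of which 4 are the 2 strands of 2 CACGTG sequences. All 20 glycolytic genes were found in the RefSeq table, with 30 starts between them. Of those windows, 80% held ACGTG or GCGTG on either strand, against 53.9% of the 13277 windows of tested genes, and the share with ACGTG was 40% against 20.9%. Those 13277 windows came from 10473 genes. Windows of nearby starts can overlap, so a match can be counted more than once. Starts 2 and 3 of Aldoa, and starts 2 and 3 of Eno1, shared matches in this way. A strict form of the NF-kB binding sequence was found in 0 of the 30 windows and in 1.58% of all 13277. A match describes the letters in a window and says nothing of binding.

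The enzymes of the middle and end of the pathway moved less than 2-fold with LPS in either origin with the deposited scaling. In BMDM the direction of 6 of these 10 depended on the scaling, while Gpi1, Aldoa, Aldoc and Pkm were negative under the deposited, equal-total and quantile scalings, reaching -1.26 for Gpi1, -1.04 for Aldoa and -1.16 for Pkm with quantile normalization and -1.03 for Aldoc with equal totals. In resident macrophages Tpi1, triose phosphate isomerase (-0.22 ± 0.06 (SE)), Pgam1, phosphoglycerate mutase (-0.24 ± 0.07 (SE)), and Eno1, enolase (-0.36 ± 0.09 (SE)), fell on the log2 scale, with calls that held in 11, 12 and 12 of 22 alternatives and that each of the 4 BMDM libraries ended when left out, as did resident LPS-treated replicate 3 and untreated replicates 2 and 3. Without resident LPS-treated replicate 1 Tpi1 and Eno1 were not called, and without its replicate 2 Tpi1 and Pgam1. The other 7 of these 10 genes had log2 changes from -0.29 to -0.046 there and were not called. With the deposited scaling, Pgk1, phosphoglycerate kinase, rose in BMDM (log2 change 0.83 ± 0.13 (SE), limma adjusted p = 0.000282). Gapdh, glyceraldehyde phosphate dehydrogenase (0.40 ± 0.12 (SE)), and Tpi1 (0.23 ± 0.08 (SE)) rose as well, and Gpi1, glucose phosphate isomerase (-0.36 ± 0.11 (SE)), fell. Leaving out 1 BMDM library ended the call of Tpi1 for each of the 4, of Gapdh for all but untreated replicate 1, and of Gpi1 for all but untreated replicate 2. Aldoa and Aldoc (the aldolases), Pgam1, Eno1, Pkm (pyruvate kinase) and Ldha were not called in BMDM, with log2 changes between -0.38 and 0.18.

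Ldha had the most normalized reads per kilobase of the 20 genes in resident macrophages. It had 32412 ± 5064 normalized reads in LPS-treated resident macrophages (SD, n = 3), against 34099.5 ± 7083 in untreated ones, and 33798 ± 1512 in LPS-treated BMDM (SD, n = 2), against 31482 ± 394 in untreated BMDM. In LPS-treated BMDM Pkm (20858 normalized reads per kilobase) and Aldoa (20001) exceeded Ldha (18622). Ldha was at least 98.9% of lactate dehydrogenase reads per kilobase in every group. Gapdh, a common reference gene, averaged 1564 and 1872 normalized reads per kilobase in LPS-treated and untreated resident macrophages, where Ldha averaged 17858 and 18788. Gapdh, Pgk1, Pgam1, Ldha and Aldoa have processed copies named in the annotation, and how reads that match several places were counted is not given in the sources used here, so their levels are uncertain.

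At the branch point after pyruvate, Pdk1 encodes a kinase that keeps pyruvate out of the mitochondrial cycle by inhibiting pyruvate dehydrogenase. It had 169.9, 244 and 219 normalized reads in LPS-treated resident macrophages, against 243, 279 and 289 in untreated ones (log2 change -0.37 ± 0.13 (SE), limma adjusted p = 0.0994). It had 1654 and 1727 in LPS-treated BMDM, against 1087 and 1014 in untreated BMDM (log2 change 0.69 ± 0.16 (SE), limma adjusted p = 0.00428). Resident libraries overlapped and were all below the BMDM libraries, and the difference of responses was -1.06 ± 0.21 (SE), limma adjusted p = 0.00243. With equal library totals the BMDM change was 0.04 and was not called.

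Slc16a3, the transporter that exports lactate from glycolytic cells, had 466, 576 and 606 normalized reads in LPS-treated resident macrophages, against 539, 850.2 and 1240.2 in untreated ones, which overlapped and spread widely among untreated libraries (log2 change -0.60 ± 0.24 (SE), limma adjusted p = 0.133). It had 4754 and 4429 in LPS-treated BMDM, against 3216 and 3179.7 in untreated BMDM (log2 change 0.52 ± 0.29 (SE), limma adjusted p = 0.155). The difference of responses was called, at -1.12 ± 0.38 (SE), limma adjusted p = 0.0364, but in only 10 of 21 alternatives, and it was lost without resident LPS-treated replicate 1 or 2, resident untreated replicate 2 or any BMDM library. Slc16a3 made up 33.9% of the reads per kilobase of Slc16a3 and Slc16a1 in LPS-treated and 47.5% in untreated resident macrophages, against 80.7% and 83.7% in LPS-treated and untreated BMDM.

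The scaling decides how the later enzymes read in BMDM. With equal library totals the median LPS change of all genes in BMDM moved to -0.67 and the share of called genes that rose moved to 20.9%, against 49.0% with the deposited scaling. The glycolytic genes then numbered 7 higher and 9 lower. After quantile normalization they were 7 higher and 7 lower, where 40.0% of all genes called rose. Tpi1, Gapdh, Pgam1, Eno1, Ldha and Slc16a3 turned negative under both, and Pgk1 under quantile normalization. Slc2a1, Slc2a6, Hk2, Pfkl, Pfkp and Pfkfb3 rose in BMDM under all 22 alternatives. Set against the median of all genes, the glycolytic median was 0.65 with the deposited scaling, 0.63 with equal totals and 0.10 after quantile normalization, with 16, 16 and 12 of 20 genes above it.

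The difference of LPS responses, resident minus BMDM, was called lower for 15 of 20 glycolytic genes, where 22.8% of all genes were lower and 19% higher. The 5 not called were Gpi1, Aldoa, Aldoc, Pkm and Ldha, and the 3 positive differences among the 20 were at most 0.10 on the log2 scale. Tested with equal totals, 8 were lower and 3 higher, where 76.8% of the 7762 genes called were higher. After quantile normalization 7 were lower and 6 higher, where 56.9% of the 5426 genes called were higher. Set against the median of all genes, the glycolytic median was -0.89 with the deposited scaling. It was -0.86 with equal totals and -0.28 after quantile normalization. Under these scalings 17, 17 and 13 of 20 genes lay below the median of all genes. The 6 that stayed lower under all 21 alternatives were Slc2a1, Slc2a6, Hk2, Pfkl, Pfkp and Pfkfb3. In resident macrophages the count of LPS calls moved with the settings, as did that of all genes, 1779 in the main fit. With a term for Y-linked transcripts 12 of 20 were called (4 higher, 8 lower), and 3449 of all genes. When only resident libraries were fitted 1 of 20 was called, and 529 of all genes. When a library was left out 1 to 9 were called, lowest without untreated replicate 2 and highest without untreated replicate 1. Of all genes, 1350 and 2290 were called without these 2 libraries.

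**Figure D3:**
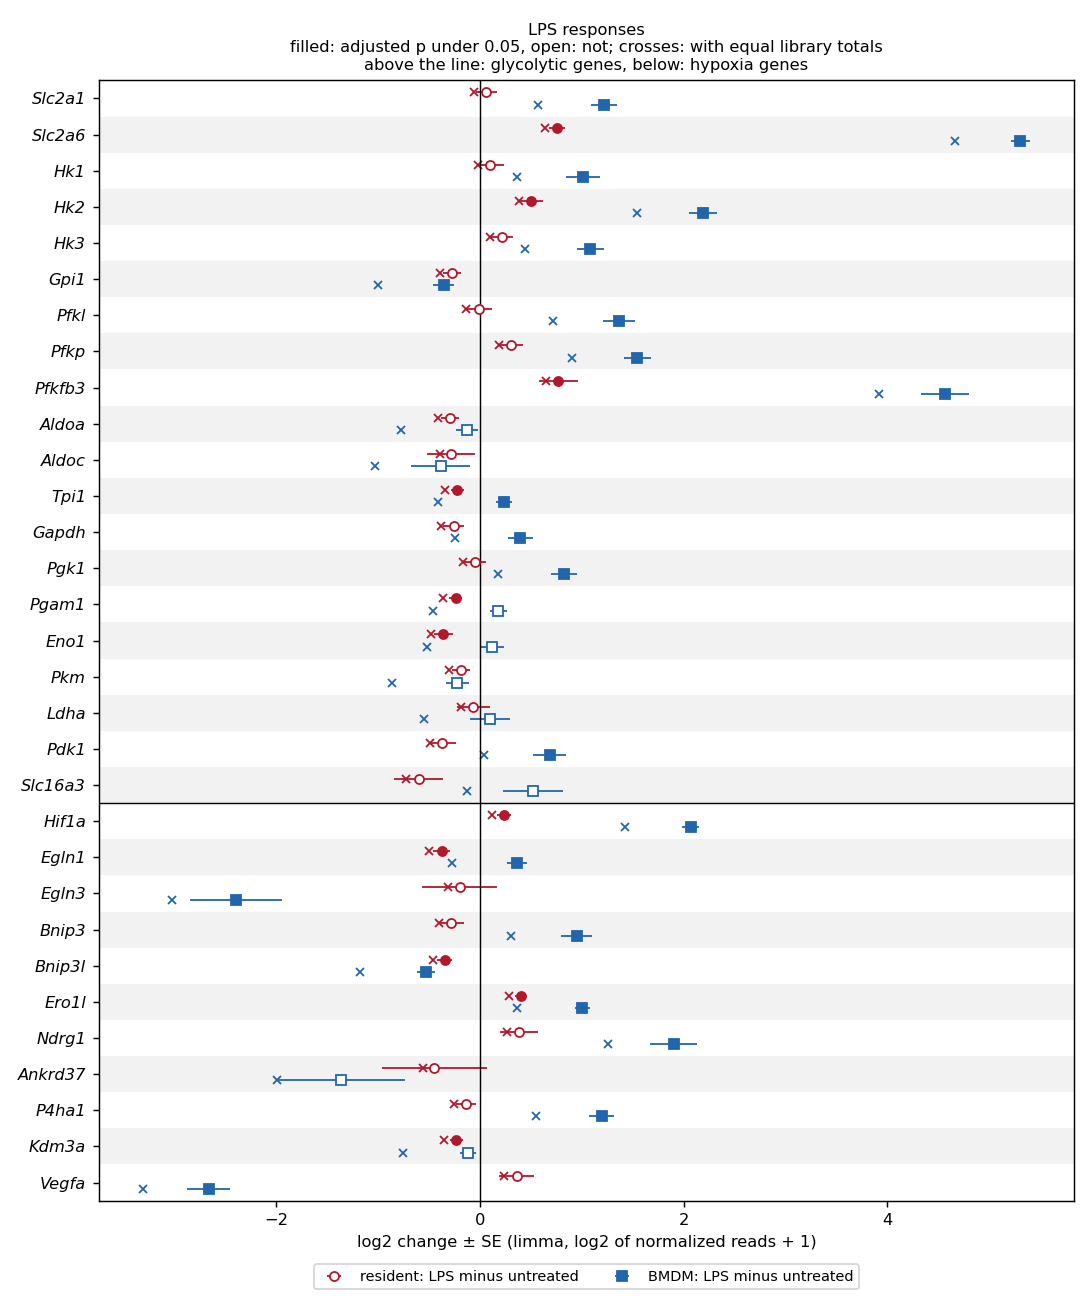
Log2 change with LPS (points ± SE from limma) of each gene in resident macrophages (red circles) and BMDM (blue squares), filled where the adjusted p is under 0.05; crosses give the same change with equal library totals. Slc2a6 and Pfkfb3 lie farthest right for BMDM, Vegfa and Egln3 farthest left, and resident changes stay between -0.60 and 0.77.

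Hypoxia genes were counted apart from the glycolytic ones. In resident macrophages 2 of 11 rose with LPS, 3 fell and 6 were not called, with a median log2 change of -0.20 against 0.00 for all genes, of which 12.9% were called. In BMDM 6 rose, 3 fell and 2 were not called, with a median of 0.37 against -0.04, where 57.8% of all genes were called. None of the 5 resident calls held in all 22 alternatives: Bnip3l and Egln1 were lost when only resident libraries were fitted, Ero1l with equal totals and voom, and Hif1a and Kdm3a more widely. With equal library totals 4 fell and 7 were not called in resident macrophages, and 4 rose and 6 fell in BMDM. Of all genes called with that scaling, 27.1% rose in resident macrophages and 20.9% in BMDM.

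**Figure D4:**
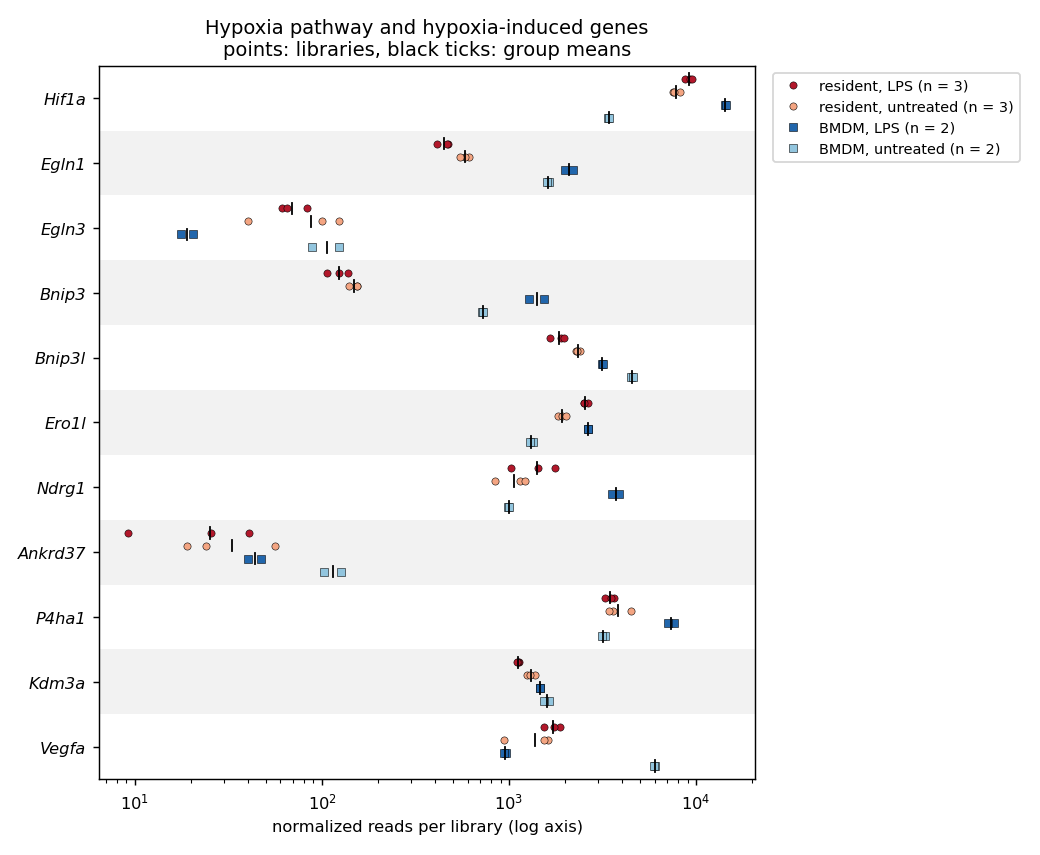
Normalized reads (log axis) of the 11 hypoxia genes in each library, with a point per library and a black tick at the group mean, groups ordered as in the plot of glycolytic genes. Hif1a is highest in LPS-treated BMDM and lowest in untreated BMDM, Vegfa is highest in untreated BMDM, and Bnip3 and Egln1 lie lower in resident macrophages than in BMDM.

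Hif1a, the alpha subunit of HIF, lies on chromosome 12 (chr12:73901375-73947530, plus strand). It had 8732, 9276 and 9514 normalized reads in LPS-treated resident macrophages, against 8222, 7497 and 7659 in untreated ones (log2 change 0.24 ± 0.07 (SE), limma adjusted p = 0.0459). In BMDM it rose, with 14204 and 14372 normalized reads in LPS-treated BMDM, against 3377 and 3425 in untreated BMDM (log2 change 2.07 ± 0.08 (SE), limma adjusted p = 9.24e-09), and groups did not overlap in either origin. The resident call held in 9 of 22 alternatives and was lost with equal library totals and without any library but replicate 1 of each resident group, while the BMDM call held in all 22. Resident minus BMDM, the responses differed by -1.83 ± 0.11 (SE), limma adjusted p = 3.96e-07. Per kilobase, Hif1a was at least 96.4% of the sum of Hif1a and Epas1, the other main HIF alpha subunit, in every group.

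The prolyl hydroxylases that mark HIF for destruction moved in opposite directions in BMDM with the deposited scaling only. Egln3 had 61.0, 82.6 and 64.8 normalized reads in LPS-treated resident macrophages, against 40.1, 99.7 and 123 in untreated ones, where the untreated libraries spanned the treated ones (log2 change -0.20 ± 0.37 (SE), limma adjusted p = 0.799). In BMDM it fell 5.26-fold, with 20.6 and 17.6 normalized reads in LPS-treated BMDM, against 123 and 88.7 in untreated BMDM (log2 change -2.40 ± 0.45 (SE), limma adjusted p = 0.00104). The difference of responses was 2.20 ± 0.58 (SE), limma adjusted p = 0.012. Egln1, the main oxygen sensor of the family, fell in resident macrophages (log2 change -0.38 ± 0.08 (SE), limma adjusted p = 0.0155) and rose in BMDM (log2 change 0.37 ± 0.10 (SE), limma adjusted p = 0.00939). The BMDM change of Egln1 was not called without LPS-treated replicate 1 or untreated replicate 2. With equal library totals it was -0.28 and called lower (limma adjusted p = 0.0255), as was that of Egln3 (-3.02). With quantile normalization the Egln1 change in BMDM was 0.040 and not called (limma adjusted p = 0.783). The Egln3 difference was not called without untreated BMDM replicate 1.

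Genes known as HIF targets did not follow a single direction. Vegfa, which encodes the main growth factor for blood vessels, lies on chromosome 17 (chr17:46016993-46032369, minus strand). It had 1541, 1861 and 1743 normalized reads in LPS-treated resident macrophages, against 944, 1617 and 1545 in untreated ones, which overlapped (log2 change 0.36 ± 0.17 (SE), limma adjusted p = 0.212). In BMDM it fell 6.33-fold, with 960.4 and 936 normalized reads in LPS-treated BMDM, against 6044 and 5969 in untreated BMDM (log2 change -2.66 ± 0.21 (SE), limma adjusted p = 1.97e-06). Untreated BMDM were far above the other 3 groups, and the difference of responses was 3.02 ± 0.27 (SE), limma adjusted p = 1.07e-05, the largest positive one among the 31 genes.

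Bnip3, a receptor for the removal of mitochondria, had 123, 138 and 107 normalized reads in LPS-treated resident macrophages, against 154, 153 and 139 in untreated ones, without overlap (log2 change -0.28 ± 0.12 (SE), limma adjusted p = 0.175). It had 1538 and 1272 in LPS-treated BMDM, against 718 and 729 in untreated BMDM (log2 change 0.95 ± 0.15 (SE), limma adjusted p = 0.000373). With equal library totals the BMDM change was 0.30 and was not called (limma adjusted p = 0.119). All 6 resident libraries were below all 4 BMDM libraries, and the difference of responses was -1.23 ± 0.20 (SE), limma adjusted p = 0.000631. An antisense gene overlaps 22.3% of the exonic bases of Bnip3 in the annotation, and its reads cannot be told apart here because no strand is stated for the library kit. Bnip3l, its close relative with the same role, fell in both origins, with log2 changes of -0.34 ± 0.07 (SE) in resident macrophages and -0.53 ± 0.09 (SE) in BMDM.

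Ero1l, an oxidase that helps proteins fold in the endoplasmic reticulum, rose in both origins with the deposited scaling, but with equal totals the resident change was 0.29 and was not called (limma adjusted p = 0.0608). It had 2507, 2627 and 2514 normalized reads in LPS-treated resident macrophages, against 1828, 1926 and 2021 in untreated ones (log2 change 0.41 ± 0.06 (SE), limma adjusted p = 0.00307), and 2643 and 2647 in LPS-treated BMDM, against 1335 and 1295 in untreated BMDM (log2 change 1.01 ± 0.08 (SE), limma adjusted p = 1.18e-06). The 5 LPS-treated libraries of both origins lay between 2507 and 2647 normalized reads. Ndrg1, a stress-responsive gene of differentiating cells, had 1763, 1433 and 1029 normalized reads in LPS-treated resident macrophages, against 1142, 1209 and 838 in untreated ones, which overlapped (log2 change 0.39 ± 0.19 (SE), limma adjusted p = 0.212). It had 3557 and 3881 in LPS-treated BMDM, against 984 and 1002 in untreated BMDM (log2 change 1.90 ± 0.23 (SE), limma adjusted p = 4.58e-05).

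P4ha1, a subunit of the prolyl hydroxylase that stabilises collagen, had 3659, 3252 and 3516 normalized reads in LPS-treated resident macrophages, against 4502, 3586 and 3438 in untreated ones, which overlapped (log2 change -0.14 ± 0.10 (SE), limma adjusted p = 0.442). It had 7577 and 7073 in LPS-treated BMDM, against 3238 and 3139 in untreated BMDM (log2 change 1.20 ± 0.12 (SE), limma adjusted p = 1.37e-05), and the difference of responses was -1.33 ± 0.16 (SE), limma adjusted p = 7.86e-05. Kdm3a, a histone demethylase, fell in resident macrophages (log2 change -0.23 ± 0.06 (SE), limma adjusted p = 0.0407) in a call that held in 10 of 22 alternatives and was lost without any 1 library but untreated resident replicate 2. It was not called in BMDM (-0.11 ± 0.08 (SE)). Ankrd37, an ankyrin repeat gene, was low, at 9.24, 40.8 and 25.5 normalized reads in LPS-treated and 24.1, 56.0 and 19.1 in untreated resident macrophages, and 40.1 and 47.4 in LPS-treated and 126 and 102 in untreated BMDM, and was not called for LPS in either origin.

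Over the 11 hypoxia genes the difference of responses was lower in resident macrophages for 6, higher for 2 and not called for 3, with a median of -0.60 against 0.02 for all genes and 41.8% of all genes called. Bnip3, Hif1a, Ndrg1 and P4ha1 stayed lower and Vegfa stayed higher under all 21 alternatives. With equal library totals 4 were lower and 4 higher, where 76.8% of all genes called were higher.

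The promoters of Hif1a, Bnip3 and Vegfa are shown because these genes carry the rise, the origin gap and the fall among hypoxia genes. The windows are again the 250 bases before a RefSeq start with the same letters in capitals, at chr12:73907617-73907866 (plus strand), chr7:138909507-138909756 (minus strand) and chr17:46032378-46032627 (minus strand, the first of 2 Vegfa starts).
Hif1a: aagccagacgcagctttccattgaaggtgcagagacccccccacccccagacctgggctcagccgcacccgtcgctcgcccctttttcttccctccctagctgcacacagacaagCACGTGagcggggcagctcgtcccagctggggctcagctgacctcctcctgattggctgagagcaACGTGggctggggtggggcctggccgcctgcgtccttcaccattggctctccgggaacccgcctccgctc
Bnip3: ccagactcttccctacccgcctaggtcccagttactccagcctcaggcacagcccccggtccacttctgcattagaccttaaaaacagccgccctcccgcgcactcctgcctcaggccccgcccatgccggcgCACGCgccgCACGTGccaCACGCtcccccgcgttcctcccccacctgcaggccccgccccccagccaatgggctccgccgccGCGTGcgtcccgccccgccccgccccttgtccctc
Vegfa: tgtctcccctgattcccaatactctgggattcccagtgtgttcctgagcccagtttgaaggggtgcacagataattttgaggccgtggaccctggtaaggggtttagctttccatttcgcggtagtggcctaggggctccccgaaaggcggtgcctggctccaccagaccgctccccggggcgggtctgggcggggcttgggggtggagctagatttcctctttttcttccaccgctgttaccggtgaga
Hif1a held 3 matches to ACGTG, Bnip3 held 2 to ACGTG and 3 to GCGTG, and this Vegfa window held 0 of either, while the window of the second Vegfa start, which lies within the gene and is not shown, held 1 of each. The first Pfkfb3 window, also not shown, held 1 ACGTG, and the second Ldha window 1 GCGTG. Of the 11 hypoxia genes 9 were found in the RefSeq table, Bnip3l and Ndrg1 not being matched. Their 12 windows held ACGTG or GCGTG in 75% of cases, against 53.9% of all 13277, and ACGTG in 66.7% against 20.9%. The NF-kB form was found in 0 of the 12.

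Resident macrophages and BMDM differed before any LPS. Untreated, 5 of 20 glycolytic genes were higher in resident macrophages, 11 were lower and 4 were not called, in a comparison that called 39.2% of all genes higher and 32.6% lower. The median log2 difference, resident minus BMDM, was -0.31, against 0.08 for all genes. The 5 higher ones were early in the pathway: Pfkfb3 (2.93 ± 0.21 (SE)), Hk2 (1.34 ± 0.13 (SE)), Slc2a6 (1.09 ± 0.09 (SE)), Hk3 (0.70 ± 0.12 (SE)) and Pfkp (0.44 ± 0.12 (SE)). The lower ones ran from Aldoc (-4.84 ± 0.26 (SE)) through Pgam1 (-2.17 ± 0.07 (SE)), Pdk1 (-1.96 ± 0.15 (SE)), Slc16a3 (-1.95 ± 0.27 (SE)), Tpi1 (-1.67 ± 0.07 (SE)), Pkm (-1.34 ± 0.10 (SE)) and Eno1 (-1.26 ± 0.10 (SE)) to Pfkl (-1.04 ± 0.15 (SE)), Aldoa (-0.57 ± 0.10 (SE)), Gpi1 (-0.31 ± 0.10 (SE)) and Pgk1 (-0.30 ± 0.12 (SE)). Slc2a1, Hk1, Gapdh and Ldha were not called, and the 95% interval of the Ldha difference was -0.31 to 0.50.

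Several of these gaps were wide in the values. Pgam1 had 4564, 4592 and 4331 normalized reads in untreated resident macrophages, against 20571 and 19928 in untreated BMDM. Aldoc, an aldolase best known from brain, had 31.2, 18.0 and 18.1 in untreated resident macrophages, against 665 and 633 in untreated BMDM, and was at most 1.07% of aldolase reads per kilobase in any library. Pkm had 23304, 24234 and 22707 in untreated resident macrophages, against 60325 and 57815 in untreated BMDM. No library of these 3 genes overlapped between the origins. Of the called genes, Pfkp and Pgk1 lost their call in the most alternatives, holding in 20 and 13 of 22. Without untreated BMDM replicate 1 neither was called, nor was Gpi1, and Pgk1 was also lost without any other BMDM library, resident LPS-treated replicate 2 or resident untreated replicate 2 or 3.

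**Figure D5:**
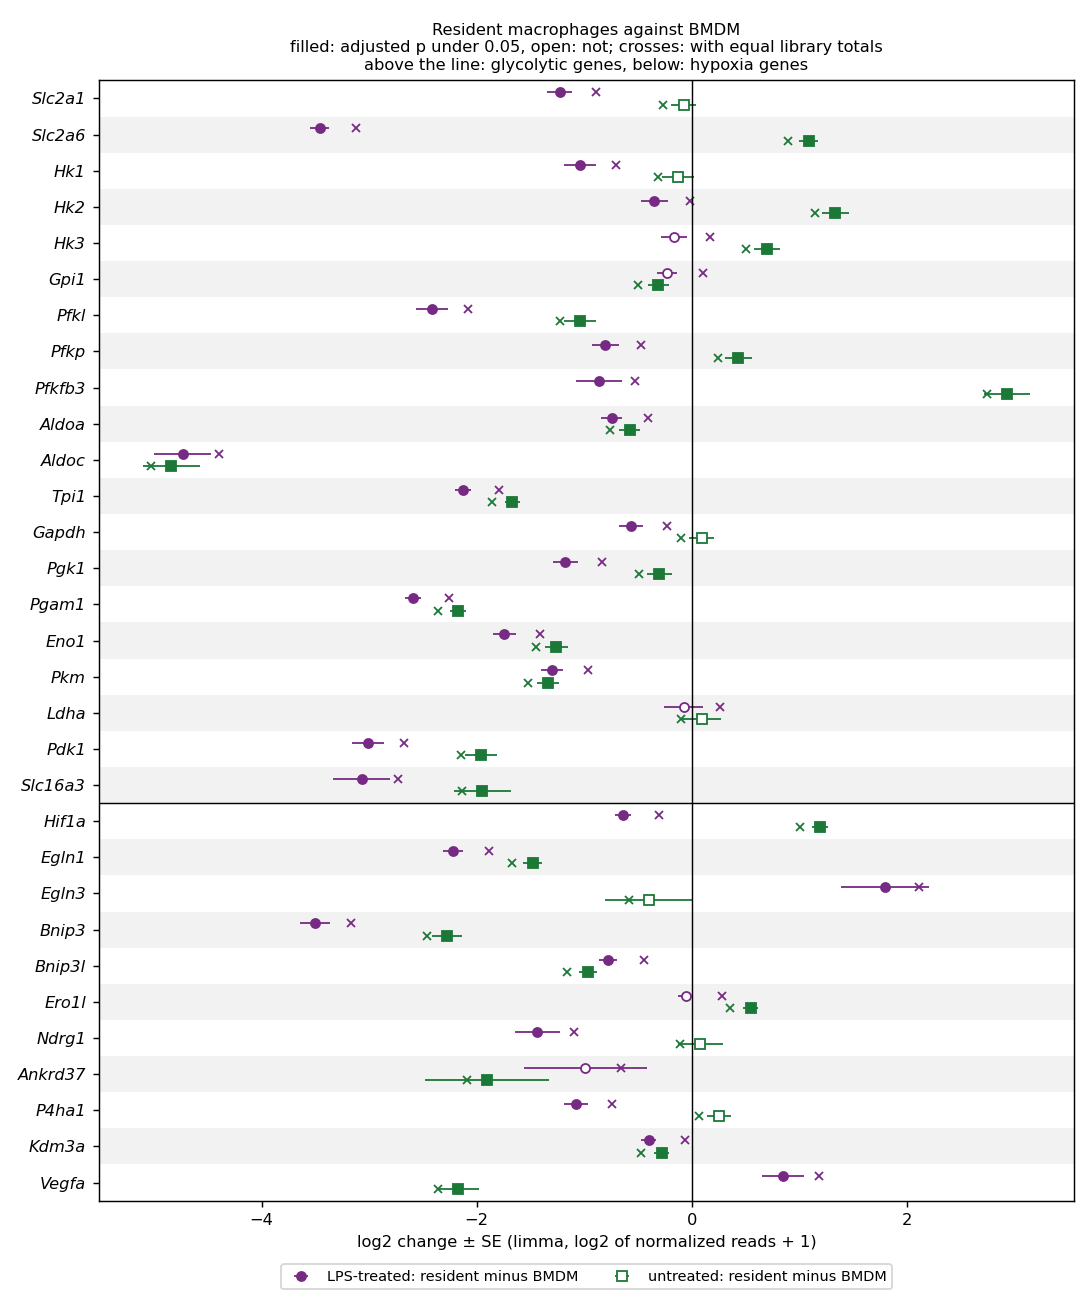
Log2 difference between resident macrophages and BMDM (points ± SE from limma; positive is higher in resident macrophages), with LPS (purple circles) and untreated (green squares), filled where the adjusted p is under 0.05; crosses give the same difference with equal library totals. Slc2a6, Hk2, Pfkp, Pfkfb3 and Hif1a have filled points right of 0 untreated and left of 0 with LPS, and Vegfa has the reverse. Other genes that cross 0 have an open point untreated, with LPS or in both.

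With LPS on both sides, 17 of 20 glycolytic genes were lower in resident macrophages and 3 (Hk3, Gpi1 and Ldha) were not called, all 20 differences being negative, where 36.7% of all genes were higher and 34.5% lower. The median difference was -1.20, against 0.03 for all genes, and 16 of the 17 calls held in all 22 alternatives, Hk2 being the exception with 14. Its difference of -0.35 became -0.011 with equal totals (limma adjusted p = 0.913) and -0.038 with quantile normalization (limma adjusted p = 0.729), and the call was also lost with voom, without a variance trend, and without resident replicate 2 or 3 or either BMDM library with LPS. Slc2a6 had 3620.5, 3179 and 3043 normalized reads in LPS-treated resident macrophages, against 35769 and 36207 in LPS-treated BMDM, a log2 difference of -3.46 ± 0.09 (SE), limma adjusted p = 1.25e-09. Slc2a6 and Pfkfb3 were thus called higher in resident macrophages without LPS and lower with it under each scaling. Pfkp and Hk2 were so with the deposited scaling, but the untreated Pfkp difference was 0.076 with quantile normalization (limma adjusted p = 0.438), and the Hk2 difference with LPS was lost as above. With equal library totals the all-gene median of this comparison moved to 0.36, and the glycolytic median lay 1.23 below it, as with the deposited scaling. The 2 origin comparisons and the 2 LPS comparisons share libraries, so their values are not independent of each other.

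Among hypoxia genes, untreated resident macrophages were higher for 2, lower for 6 and not called for 3, with a median of -0.40 and 71.9% of all genes called. Hif1a (1.19 ± 0.07 (SE)) and Ero1l (0.55 ± 0.07 (SE)) were higher. Bnip3 (-2.28 ± 0.14 (SE)), Vegfa (-2.17 ± 0.19 (SE)), Ankrd37 (-1.90 ± 0.57 (SE)), Egln1 (-1.48 ± 0.09 (SE)), Bnip3l (-0.97 ± 0.08 (SE)) and Kdm3a (-0.28 ± 0.07 (SE)) were lower, of which Ankrd37 and Kdm3a were not called without untreated BMDM replicate 1. With LPS, 2 were higher (Egln3 at 1.80 ± 0.41 (SE) and Vegfa at 0.85 ± 0.19 (SE)), 7 were lower and 2 were not called, with a median of -0.78 and 71.3% of all genes called. The 7 lower ones ranged from Bnip3 (-3.51 ± 0.14 (SE)) and Egln1 (-2.22 ± 0.09 (SE)) to Hif1a (-0.64 ± 0.07 (SE)) and Kdm3a (-0.40 ± 0.07 (SE)). Egln3 was 0.88 and not called with quantile normalization (limma adjusted p = 0.054), Kdm3a was -0.064 and not called with equal totals (limma adjusted p = 0.462), and the other 7 calls held in all 22 alternatives.

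Markers of other cells moved with origin in the same libraries. All 16 neutrophil genes were higher in untreated resident macrophages than in untreated BMDM, with a median log2 difference of 8.20. The 19 tested erythroid genes summed to 0.176 to 0.281% of values in untreated resident macrophages, against 0.00482 to 0.00583% in untreated BMDM, and all 19 were higher. In this untreated comparison 39.2% of all genes were higher and 32.6% lower. Megakaryocyte and platelet genes were higher for 8 of 9, B lineage genes for 10 of 10 and T and NK genes for 7 of 8. The part of these cells in the origin differences was not tested. With LPS in resident macrophages 7.36% of all genes were higher and 5.57% lower. The neutrophil genes had a median log2 change of 0.01 there, with 1 of 16 higher and 2 lower. Of the macrophage list of 13 genes 3 fell and 10 were not called, with a summed share of 1.15 to 1.42% with LPS against 1.68 to 2.17% without.

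Neighbouring pathways gave further counts, with the deposited scaling unless voom on recovered reads, which scales to library totals, is named. With the deposited scaling they stand against 12.9% of all genes called with LPS in resident macrophages and 57.8% in BMDM. With voom, 2362 of all 13755 genes were called with LPS in resident macrophages and 9727 in BMDM. Of those called by voom, 28.3% were higher in resident macrophages and 21.7% in BMDM, and the rest were lower. Of 20 tested relatives of the glycolytic genes (other transporters and isoenzymes), 2 were called with LPS in resident macrophages, where the sugar transporter Slc2a8 (-1.01 ± 0.15 (SE)) and Slc16a7, a monocarboxylate transporter (-0.54 ± 0.14 (SE)), fell. In BMDM 1 rose and 8 fell, with a median log2 change of -0.62: the lactate transporter Slc16a1 rose (0.82 ± 0.10 (SE)), and Pfkfb4 (-1.74 ± 0.15 (SE)) and Pfkfb2 (-1.95 ± 0.28 (SE)) had the widest falls. With voom 11 of the 20 fell in BMDM and 9 were not called. Untreated, 9 were higher and 7 lower in resident macrophages than in BMDM, led by Slc2a3 (2.94 ± 0.34 (SE)), where 39.2% of all genes were higher and 32.6% lower. The difference of responses was higher for 5 and lower for 1, where 19% of all genes were higher and 22.8% lower.

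Of 13 genes that control the entry of pyruvate into mitochondria, 1 was called with LPS in resident macrophages, and 6 rose and 3 fell in BMDM, against 1 higher and 8 lower there with voom. The gene called in resident macrophages was Pdk2, a pyruvate dehydrogenase kinase, with 39.7, 47.2 and 47.1 normalized reads in LPS-treated resident macrophages, against 58.9, 72.2 and 87.6 in untreated ones (log2 change -0.68 ± 0.19 (SE)). It fell further in BMDM, with 32.9 and 37.9 in LPS-treated BMDM, against 312 and 314 in untreated BMDM (log2 change -3.11 ± 0.23 (SE)), and the difference of responses was 2.43 ± 0.30 (SE), limma adjusted p = 0.000101. Pdk3 was the main kinase per kilobase in resident macrophages, at 76.8% of the 4 Pdk genes with LPS and 69.1% without. In BMDM Pdk1 and Pdk3 were 52.7% and 44.7% with LPS, against 41.7% and 29.6% without.

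Of 17 tricarboxylic acid cycle genes, 1 was called with LPS in resident macrophages, and 4 rose and 5 fell in BMDM, with a median of -0.03, against 14 that fell and 3 not called with voom. Idh2, a mitochondrial isocitrate dehydrogenase, fell in resident macrophages (-0.53 ± 0.09 (SE)) and in BMDM (-0.88 ± 0.11 (SE)). Of 8 pentose phosphate genes, 1 was called in resident macrophages, and 1 rose and 5 fell in BMDM, with a median of -0.37, against 1 higher and 6 lower with voom. Taldo1, transaldolase, fell in both (-0.61 ± 0.14 (SE) in resident macrophages and -0.83 ± 0.17 (SE) in BMDM), and Rpe, a pentose epimerase, rose in BMDM (1.30 ± 0.09 (SE)).

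Of 10 tested genes of the HIF machinery, 0 were called by limma with LPS in resident macrophages (1 at an unadjusted p under 0.05, and 1 by voom on recovered reads), and 5 rose and 1 fell in BMDM, where voom called 1 higher and 4 lower. Cited2, a HIF-induced protein that restrains HIF, had 5144, 6057 and 4924 normalized reads in LPS-treated resident macrophages, against 4913, 5357 and 4248 in untreated ones (log2 change 0.15 ± 0.10 (SE), limma adjusted p = 0.384). It had 7822 and 7564 in LPS-treated BMDM, against 2366 and 2254 in untreated BMDM (log2 change 1.74 ± 0.12 (SE), limma adjusted p = 8.19e-07). Of 29 further tested hypoxia targets, 1 rose and 1 fell in resident macrophages, while 12 rose and 10 fell in BMDM, with medians of -0.01 and 0.12. With voom 1 rose and 3 fell in resident macrophages, and 8 rose and 16 fell in BMDM. Cxcr4, a chemokine receptor, fell in resident macrophages (-1.06 ± 0.13 (SE)) and in BMDM (-4.70 ± 0.15 (SE)), as did Angptl4 in BMDM (-3.63 ± 0.39 (SE)). Pgf, placental growth factor, rose in resident macrophages (0.80 ± 0.16 (SE)), with 587, 482 and 572 normalized reads in LPS-treated resident macrophages, against 330.0, 345 and 267 in untreated ones, and had 41.1 and 42.0 in LPS-treated BMDM, against 3.65 and 4.57 in untreated BMDM. The widest rise in BMDM was that of Mt2, a metallothionein (6.77 ± 0.67 (SE)).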

How the data were processed

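RNA was sequenced from 10 mouse libraries made with a kit named in the labels' protocols. Per the submitters' processing notes, HISAT 0.1.7 and the mm10 genome were used; no counter, annotation or trimming step is named in the labels or headers. The deposited signal is gene reads, scaled by the authors with a single factor for each library and a floor of 1. Dividing by each library's step gave whole reads, within 0.02, for 100% of the 8053 to 9200 values tested per library. Values at the floor and the highest values were not tested in this way. Per-kilobase levels used the longest protein-coding transcript of each gene in the GENCODE annotation of GRCm38.

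Values were taken as log2(value + 1), and genes with at least 10 in at least 2 libraries were kept (13755 of 13809). Fold changes on this scale understate those of low genes. A model of 4 groups was fitted over all 10 libraries with limma 3.58.1 (R 4.3.3) and a variance trend, leaving 6 residual degrees of freedom, and 5 contrasts were tested with Benjamini-Hochberg adjustment over all tested genes. Adjusted p under 0.05 was called. The fit was tested on simulated data. All 31 genes were accounted for, with values in every library for those called with LPS, or in the difference of responses, at an absolute log2 change of at least 1; of the other lists, called genes with the largest rise or fall were named, except 1 that is not reported here. The members and gene lists were chosen with earlier results of these data known. Alternatives were other pseudocounts, filters, scalings and variance settings, a term for Y-linked transcripts, leaving out libraries, and voom on recovered reads. Figures were drawn with matplotlib 3.10.9 in Python 3.11.15.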

Additional observations from a re-analysis of the deposited data

Results flagged for a closer look

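The LPS responses of resident macrophages and BMDM differed for 23 of the 31 genes (limma interaction, adjusted p under 0.05, n = 3 resident and 2 BMDM libraries per treatment). The same test called 41.8% of all 13755 genes. The values are log2 differences, the resident response minus that of BMDM, with the deposited scaling. Among sugar transporters and hexokinases they were -1.15 for Slc2a1, -4.55 for Slc2a6, -0.91 for Hk1, -1.68 for Hk2 and -0.86 for Hk3. Around phosphofructokinase they were -1.38 for Pfkl, -1.24 for Pfkp and -3.80 for Pfkfb3. The later enzymes gave -0.46 for Tpi1, -0.65 for Gapdh, -0.87 for Pgk1, -0.42 for Pgam1 and -0.49 for Eno1. Of these, Tpi1, Pgam1 and Eno1 turned positive with equal totals, quantile normalization and voom. Pdk1 gave -1.06 and Slc16a3 -1.12. Of the hypoxia genes, Hif1a gave -1.83, Egln1 -0.74, Bnip3 -1.23, Ero1l -0.60, Ndrg1 -1.51 and P4ha1 -1.33, while Egln3 gave 2.20 and Vegfa 3.02.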

How the results depend on the processing

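Over the 31 genes, 5 comparisons and all alternatives, 3057 of 3379 values kept their direction and their side of the threshold, 146 lost a call, 85 gained one and 91 changed sign. The other pseudocounts and filters and the median-ratio factors changed at most 1 value each. Equal library totals moved the median of all genes to -0.12 for LPS in resident macrophages, -0.67 for LPS in BMDM, -0.11 and 0.36 for resident against BMDM untreated and with LPS, and 0.52 for the difference of responses. The share of called genes that were higher then went to 27.1%, 20.9%, 46.0%, 68.7% and 76.8%, against 56.9%, 49.0%, 54.6%, 51.5% and 45.5% with the deposited scaling.

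With equal totals the log2 changes that turned sign were, for LPS in resident macrophages, Slc2a1 -0.055 and Hk1 -0.017, and in BMDM Tpi1 -0.41, Gapdh -0.25, Pgam1 -0.46, Eno1 -0.52, Ldha -0.54, Slc16a3 -0.12 and Egln1 -0.28. Untreated, resident against BMDM, they were Gapdh -0.10, Ldha -0.10 and Ndrg1 -0.11, and with LPS Hk3 0.17, Gpi1 0.11, Ldha 0.27 and Ero1l 0.28. For the difference of responses they were Aldoa 0.36, Tpi1 0.067, Pgam1 0.10, Eno1 0.041, Ldha 0.36 and Kdm3a 0.40. With quantile normalization they were, for LPS in BMDM, Tpi1 -0.64, Gapdh -0.13, Pgk1 -0.081, Pgam1 -0.64, Eno1 -0.75, Ldha -0.85 and Slc16a3 -0.15. Untreated they were Gapdh -0.22, Ldha -0.21, Ndrg1 -0.024 and P4ha1 -0.10, with LPS Hk3 0.19, Gpi1 0.10, Ldha 0.29 and Ero1l 0.090, and for the difference Aldoa 0.54, Tpi1 0.37, Pgam1 0.33, Eno1 0.32, Ldha 0.50 and Kdm3a 0.14. With voom on recovered reads, chosen after seeing the data and scaled to library totals, they were Slc2a1 -0.058 and Hk1 -0.020 for LPS in resident macrophages, and Tpi1 -0.38, Gapdh -0.21, Pgam1 -0.43, Eno1 -0.49, Ldha -0.51, Slc16a3 -0.090 and Egln1 -0.24 in BMDM. Untreated they were Gapdh -0.069, Ldha -0.070 and Ndrg1 -0.081, with LPS Hk3 0.16, Gpi1 0.10, Ldha 0.25 and Ero1l 0.27, and for the difference Aldoa 0.32, Tpi1 0.029, Pgam1 0.067, Eno1 0.0023, Ldha 0.32 and Kdm3a 0.37. These 3 settings set the library scale another way; beyond that the cause was not tested. In the untreated origin comparison, a term for Y-linked transcripts gave Ldha -0.039 and Ndrg1 -0.040, and leaving out the libraries with them gave Hk1 0.00027, Ldha -0.053 and Egln3 0.083.

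Leaving out 1 library at a time turned the sign of some values that were not called. For LPS in resident macrophages Hk1 ranged from -0.024 to 0.23, Pfkl from -0.13 to 0.11, Pgk1 from -0.14 to 0.050, Ldha from -0.22 to 0.083, Egln3 from -0.68 to 0.12 and Ankrd37 from -0.89 to 0.12. Untreated, resident against BMDM, Slc2a1 ranged from -0.17 to 0.0026, Hk1 from -0.25 to 0.00027, Ldha from -0.053 to 0.25, Egln3 from -0.71 to 0.083 and Ndrg1 from -0.021 to 0.24. With LPS Ldha ranged from -0.19 to 0.029, and the difference of responses of Aldoc from -0.044 to 0.36.

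Split by direction, the glycolytic calls for LPS in BMDM, 12 higher and 1 lower, became 7 and 9 with equal totals. They were 7 and 7 with quantile normalization and 8 and 8 with voom. Of all genes called there, 20.9%, 40.0% and 21.7% were higher in that order, against 49.0% with the deposited scaling. The 15 lower differences of responses became 8 lower and 3 higher with equal totals or voom and 7 lower and 6 higher with quantile normalization. For that contrast 76.8%, 75.1% and 56.9% of all genes called were higher with equal totals, voom and quantile normalization, against 45.5%. Counted in either direction, the totals that moved by more than 1.5 times were all for LPS in resident macrophages. The 6 glycolytic calls became 10 with quantile normalization, equal totals or voom, 3 without a variance trend, 1 with only the groups compared, 12 with the Y-linked term and 11 without those libraries, and ranged from 1 to 9 with a library left out. The 5 hypoxia calls became 3 without a variance trend and 1 with only the groups compared, and ranged from 3 to 4 with a library left out. The 1779 genes called became 529 with only the groups compared, 3449 with the Y-linked term and 2893 without those libraries, and ranged from 970.0 without LPS-treated replicate 2 to 2290.0 without untreated replicate 1. The cause was not tested. Fitting only the groups compared leaves fewer libraries, and for LPS in BMDM it called 9521 genes, against 7953 in the main fit. A planned count test with another tool was not run. No paired analysis was run, because replicate numbers follow the order of the libraries and the labels state no pairing. Replicate 1 of each resident group alone carried Y-linked transcripts, and whether libraries of the same number share a source was not tested. With 2 BMDM libraries per treatment, the spread there rests on the shared estimate.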
